A study of Mus musculus with 6 samples.

Results

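The genes of myoblast fusion examined here are 10 genes whose products act when mononucleated muscle precursors recognise each other, adhere and merge into multinucleated fibres. They are *Mymk*, *Mymx*, *Cdh15*, *Tmem182*, *Jam2*, *Jam3*, *Myof*, *Dysf*, *Adgrb3* and *Kirrel3*, and they were found by symbol among the 56262 genes listed in the count table. All 10 were measured, and all 10 passed the filter on low counts that left 22071 genes to be tested. The RNA-seq data come from leg muscle of mouse fetuses at embryonic day 18.5, with 3 wild-type (WT) samples and 3 *SYISL* knockout (KO) samples. *SYISL* is a long noncoding RNA transcribed from within the gene *Synpo2*, and the study asked what it does while muscle forms in the embryo. KO fetuses came from KO parents and WT fetuses from WT parents, so the genotype of the mother and that of the fetus cannot be told apart. The sources used here do not say whether samples of a genotype came from separate fetuses or litters, so p-values measure only the spread between these samples, which may be technical.

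Fusion proceeds in steps. Precursors first line up and adhere through cadherins, immunoglobulin proteins and their partners. Actin then pushes the membranes together, and the muscle-specific proteins myomaker (*Mymk*) and myomixer (*Mymx*) merge them, myomaker acting up to the mixing of the lipid layers and myomixer in the opening of the pore. Ferlins such as myoferlin and dysferlin are calcium-responsive proteins of membrane fusion and repair. In the fetal limb this process builds the secondary fibres that surround the primary ones.

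Each sample held between 82054811 and 102233181 counts on genes, and levels are given as CPM, the counts of a gene relative to the TMM-scaled total of its library. A gene was called when its adjusted p, from the quasi-likelihood test of edgeR with the Benjamini-Hochberg method over all genes tested, was under 0.05 and its fold change exceeded 1.5. By that rule 16.7% of all genes tested were called, 8.31% higher and 8.39% lower in KO. The host gene *Synpo2* had 130.8 to 139.0 CPM in WT and 192.6 to 228.9 CPM in KO, and no annotated gene carries the name *SYISL*, so these counts do not check the deletion. The 12 muscle fibre markers, among them *Acta1* and *Myh8*, summed to between 25446 and 28239 CPM in WT and between 51888 and 63641 CPM in KO, and 10 of them were called higher. The 12 epidermal markers, keratins among them, summed to 17774 to 26389 CPM in WT and to 794 to 916 CPM in KO, and all 12 were called lower. The 5 red blood cell markers summed to 3228 to 3994 CPM in WT and 474 to 548 CPM in KO, with all 5 called lower. None of these marker genes had a count of 0 in any sample. The WT and KO samples thus also differed in the RNA of markers of other tissues, and the part of this in the results below was not tested. In bulk samples, fewer cells of a type and less RNA per cell cannot be told apart.

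The member with the largest difference between the genotypes was *Tmem182*, a muscle membrane protein that binds integrin beta 1 and restrains differentiation and fusion. Its start-site region is shown beside that of *Cdh15*, a member of similar level in WT that was not called. Capitals mark the E-box letters CANNTG, where N is any base. The pattern, though not every match, reads the same on both strands, and myogenic factors bind some of its forms. Both runs are the 250 bases before the start site, 5′ to 3′ on the plus strand, from RefSeq on GRCm38.p6. That of *Tmem182* is chr1:40805351-40805600 and that of *Cdh15* is chr8:122848124-122848373.

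Tmem182: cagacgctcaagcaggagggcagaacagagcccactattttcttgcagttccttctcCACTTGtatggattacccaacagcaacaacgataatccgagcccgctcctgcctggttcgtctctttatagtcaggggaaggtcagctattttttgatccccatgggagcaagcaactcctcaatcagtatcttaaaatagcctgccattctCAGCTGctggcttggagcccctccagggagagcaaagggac

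Cdh15: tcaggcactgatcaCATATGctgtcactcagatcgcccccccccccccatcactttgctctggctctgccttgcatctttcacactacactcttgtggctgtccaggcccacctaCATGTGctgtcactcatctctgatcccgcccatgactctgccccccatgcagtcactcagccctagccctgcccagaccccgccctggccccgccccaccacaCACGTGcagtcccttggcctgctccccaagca

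The *Tmem182* run held 2 matches, CACTTG at 193 and CAGCTG at 41 bases before the start site. The *Cdh15* run held 3, with CATATG at 236, CATGTG at 135 and CACGTG at 32 bases before it. Among 32851 RefSeq promoters of this length, 66.2% held at least 1 match, 31.8% at least 2 and 12.2% at least 3, while 13.0% held the form CAGCTG. Of the 10 members, 5 had an entry in the promoter table, and of the others with one, *Adgrb3* had 2 matches and *Myof* and *Dysf* had 0. A match is a description of letters and not a site of binding.

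The study also designed RT-qPCR primers for 2 members, *Tmem182* and *Kirrel3*, which are the only 2 that were called. They are shown because they mark which transcripts such an assay would read. Each is given 5′ to 3′.

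Tmem182 forward: tcagtggcgttgtgga

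Tmem182 reverse: ggagtcgtaggaggtgg

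Kirrel3 forward: actgcacacccaagttgcccg

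Kirrel3 reverse: tcaggtgatgctctcctgagag

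In the GENCODE M21 transcripts, the *Tmem182* pair matched the 1 transcript annotated and spanned 143 bases. The *Kirrel3* forward primer matched 8 of 9 annotated transcripts and the reverse primer 6 of 9, with spans of 302, 380 or 481 bases in the transcripts that held both. The counts below are per gene and do not separate these transcripts.

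Of the 10 members, 2 were called, *Tmem182* higher and *Kirrel3* lower in KO, which is to be read against the 16.7% of all genes called. By the adjusted p alone 8 members passed, 5 higher and 3 lower, where 45.0% of all genes tested passed. The CPM values of the genotypes did not overlap for 9 members, against 55.9% of all genes tested. The median log2 fold change of the members was 0.11 and that of all genes tested was -0.0041. The members therefore did not move one way, and most differences were smaller than 1.5-fold.

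**Figure D1:**
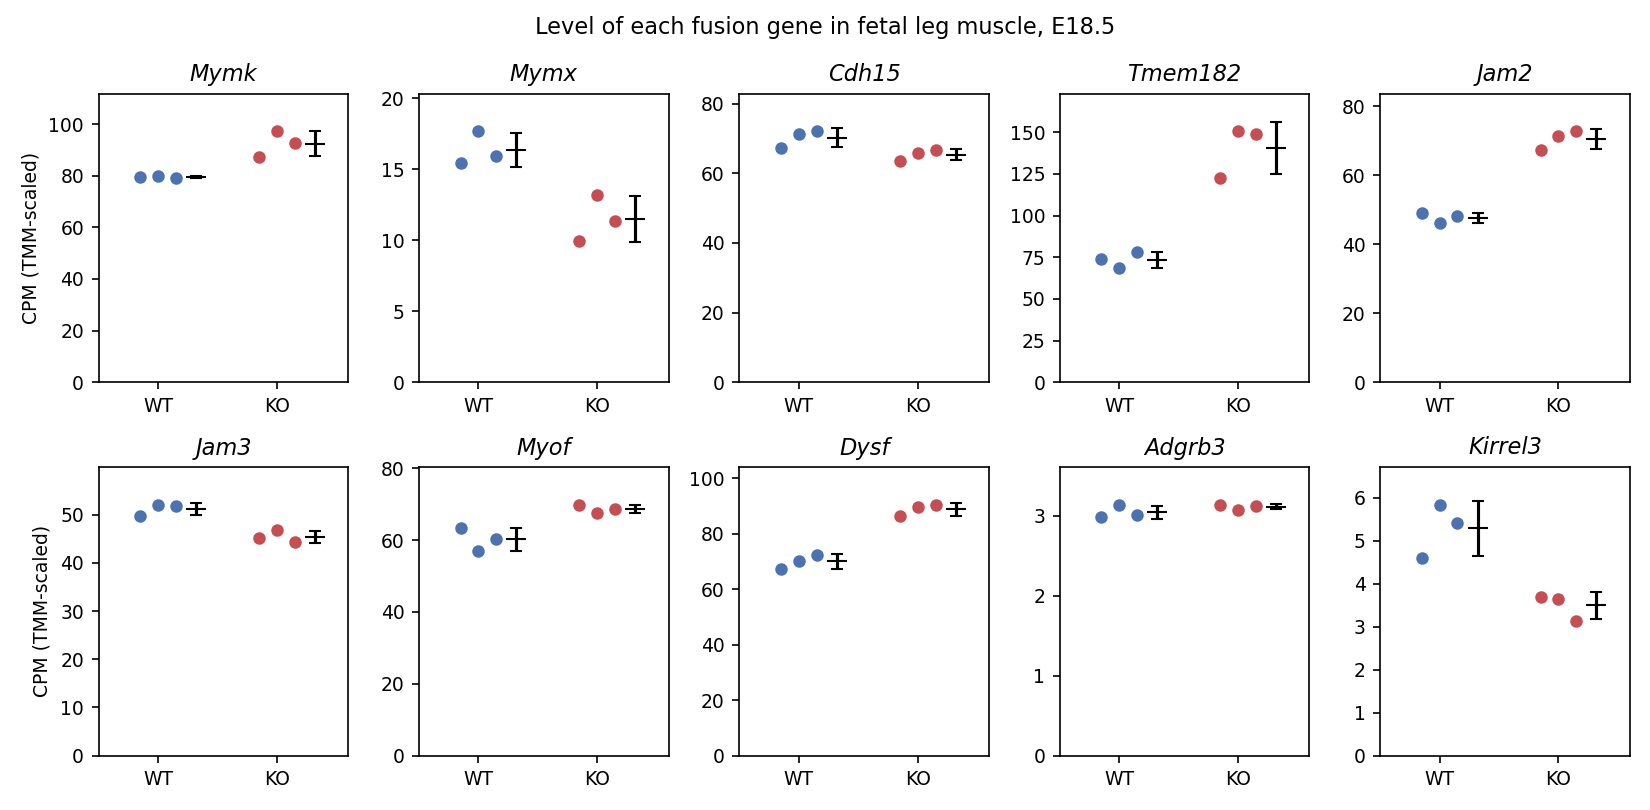
CPM (TMM-scaled, linear axis from 0) of each of the 10 genes in the 3 WT (blue) and 3 KO (red) samples, with the mean and SD as black bars. *Tmem182* sits between 68.6 and 77.9 CPM in WT and between 122.8 and 150.7 CPM in KO, and *Adgrb3* is the gene whose genotypes overlap.

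The RNAs of the 2 proteins that merge the membranes went in opposite directions. For myomaker protein, the study reported a lower level in KO than in WT fetal leg muscle by Western blot, unlike the RNA below. Protein was not measured in these data. *Mymk* (ENSMUSG00000009214.9, mm10 chr2:27061636-27072179, minus strand), which encodes myomaker, had 79.3, 79.8 and 79.2 CPM in the WT samples and 87.4, 97.3 and 92.8 CPM in the KO samples. Every KO sample was above every WT sample, and the WT samples lay very close together. The means were 79.4 ± 0.294 and 92.5 ± 4.96 CPM (SD, n = 3 each), and its log2 fold change was 0.22 (SE 0.044, adjusted p = 0.00288 from edgeR, quasi-likelihood, with Benjamini-Hochberg adjustment), under the 1.5-fold threshold.

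*Mymx* (ENSMUSG00000079471.4, chr17:45600971-45602102, minus strand), the short membrane protein myomixer, had 15.5, 17.7 and 15.9 CPM in WT and 9.95, 13.2 and 11.4 CPM in KO. All 3 KO samples lay below the WT samples, with KO replicate 2 the nearest to them. The mean fell from 16.4 ± 1.17 to 11.5 ± 1.61 CPM (SD, n = 3 each), and its log2 fold change was -0.51 with a 95% interval of -0.73 to -0.28 (adjusted p = 0.00264 from edgeR). This is 1.42-fold lower in KO and missed the fold threshold, which the interval spans. Without KO replicate 2, the highest KO sample, the log2 fold change was -0.62 and the gene was called.

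As counts per length, the ratio of *Mymk* to *Mymx* was 3.48, 3.07 and 3.38 in WT and 5.96, 5.02 and 5.54 in KO. It does not depend on how the libraries were scaled, and all KO samples had more *Mymk* per *Mymx* than any WT sample. The pair was set side by side after the values were seen, so the rise of the mean ratio from 3.31 ± 0.218 to 5.51 ± 0.473 (SD, n = 3 each) is given with no test.

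*Tmem182* (ENSMUSG00000079588.3, chr1:40805601-40856887, plus strand) had 6996, 5668 and 8224 counts in WT and 11507, 14358 and 14480 counts in KO. This corresponds to 73.9, 68.6 and 77.9 CPM in WT against 122.8, 150.7 and 148.8 CPM in KO. KO replicate 1 was the lowest of the KO samples and was still far above the WT range. The gene rose from 73.5 ± 4.68 to 141 ± 15.6 CPM (SD, n = 3 each), which is 1.92-fold, with a log2 fold change of 0.94 (SE 0.080, 95% interval 0.76 to 1.12, adjusted p = 1.26e-05 from edgeR). Under the other scalings, tools and filters and with each sample left out in turn, the log2 fold change stayed between 0.87 and 1.03 and the gene was called each time.

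*Kirrel3* (ENSMUSG00000032036.15, chr9:34485894-35036716, plus strand), an immunoglobulin protein of the nephrin family related to the fly fusion receptor Kirre, was low, with 436, 483 and 572 reads counted in WT against 347, 348 and 306 in KO. This equals 4.61, 5.84 and 5.42 CPM in WT and 3.70, 3.65 and 3.15 CPM in KO. The KO samples lay together and below WT replicate 1, the lowest of the WT samples. The gene fell from 5.29 ± 0.630 to 3.50 ± 0.308 CPM (SD, n = 3 each), and its log2 fold change was -0.60 (SE 0.107, 95% interval -0.84 to -0.35, adjusted p = 0.00158 from edgeR). At 1.51-fold lower it was just inside the threshold, and the call was lost without WT replicate 2 (-0.52), WT replicate 3 (-0.58) or KO replicate 3 (-0.52) and with upper-quartile scaling (-0.53). The study chose *Kirrel3* and *Tmem182* on these samples, so the direction of both is not independent evidence.

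*Mymx* and *Kirrel3* were both highest in WT replicate 2. Among the WT samples, *Jam3* (52.1 CPM), *Adgrb3* (3.13 CPM) and *Mymk* (79.8 CPM) were also highest there, although *Mymk* was higher in KO. WT replicate 2 had the largest sum of epidermal markers, 26389 CPM, beside 17774 CPM in WT replicate 1 and 19750 CPM in WT replicate 3. The part of epidermal tissue in the lower KO values of *Mymx* and *Kirrel3* was not tested.

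The RNAs of the paired junctional adhesion molecules split. *Jam2* and *Jam3* encode JAM-B and JAM-C, immunoglobulin proteins that bind each other across cells and in zebrafish are both needed for myoblasts to fuse. *Jam2* (ENSMUSG00000053062.16, chr16:84774123-84825928, plus strand) had 48.9, 46.0 and 48.1 CPM in WT and 67.2, 71.3 and 72.8 CPM in KO. The 2 ranges were narrow and far apart. The means were 47.7 ± 1.48 and 70.4 ± 2.86 CPM (SD, n = 3 each), with a log2 fold change of 0.56 (SE 0.043, 95% interval 0.47 to 0.66, adjusted p = 6.57e-06 from edgeR). At 1.48-fold higher it was just outside the threshold, and it was called without KO replicate 1 (0.60) or with upper-quartile scaling (0.63).

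*Jam3* (ENSMUSG00000031990.15, chr9:27097384-27155421, minus strand) had 49.8, 52.1 and 51.8 CPM in WT and 45.1, 46.8 and 44.3 CPM in KO. Each KO sample was lower than each WT sample by a small margin. The means were 51.2 ± 1.23 and 45.4 ± 1.26 CPM, a log2 fold change of -0.17 (SE 0.039, edgeR adjusted p = 0.00541). *Jam3* shares 1159 exon bases with the antisense gene *Gm48796*, which had 787 to 994 counts, and since the strand setting of the counting is not stated, the reads of the pair cannot be assigned with certainty.

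Per length, *Jam2* stood at 0.520, 0.468 and 0.491 of *Jam3* in the WT samples and at 0.788, 0.806 and 0.869 in the KO samples. Per length of all annotated exons, *Jam2* did not reach the level of *Jam3* in any sample. In CPM, without regard to length, *Jam2* was above *Jam3* in the KO samples (67.2 to 72.8 against 44.3 to 46.8) and below it in the WT samples. The pair was chosen for this ratio after the values were seen, and no test is given.

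The RNA of M-cadherin, the calcium-dependent adhesion protein of muscle precursors encoded by *Cdh15* (ENSMUSG00000031962.6, chr8:122847966-122867397, plus strand), was close in both genotypes. It had 67.2, 71.4 and 72.1 CPM in WT and 63.6, 65.9 and 66.8 CPM in KO. The highest KO sample was just under the lowest WT sample. The means of 70.3 ± 2.67 and 65.4 ± 1.65 CPM (SD, n = 3 each) gave a log2 fold change of -0.10 (95% interval -0.20 to -0.01), which did not pass (adjusted p = 0.0679 from edgeR). It passed without WT replicate 1 (edgeR adjusted p = 0.0249) and with library size as the only scaling (edgeR adjusted p = 0.00634).

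*Adgrb3* (ENSMUSG00000033569.17, chr1:25067476-25829707, minus strand), the adhesion GPCR BAI3 that works through the Elmo and Dock1 proteins in fusing myoblasts, had 2.98, 3.13 and 3.003 CPM in WT and 3.14, 3.07 and 3.11 CPM in KO. It was the member with the lowest level, at 259 to 317 counts a sample, and the genotypes overlapped. The log2 fold change was 0.03 with a 95% interval of -0.14 to 0.21 (adjusted p = 0.762 from edgeR), an interval that holds no 1.5-fold difference in either direction. With library size as the only scaling its sign turned (-0.04).

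Both ferlins among the members were higher in KO. *Dysf* (ENSMUSG00000033788.15, chr6:84008590-84211060, plus strand), which encodes dysferlin, a protein of membrane resealing in fibres, had 67.4, 70.1 and 72.5 CPM in WT and 86.2, 89.7 and 90.5 CPM in KO. The ranges lay well apart, with means of 70.0 ± 2.53 and 88.8 ± 2.27 CPM. Its log2 fold change was 0.34 (SE 0.040, edgeR adjusted p = 1.12e-04). Antisense genes that share exon bases with it had at most 42 counts in a sample.

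*Myof* (ENSMUSG00000048612.16, chr19:37899036-38043577, minus strand), which encodes myoferlin, a ferlin found in myoblasts before they fuse, had 63.4, 56.9 and 60.3 CPM in WT and 69.8, 67.6 and 68.7 CPM in KO. The WT samples were the more spread, and the KO samples all lay above them. The means were 60.2 ± 3.24 and 68.7 ± 1.10 CPM (SD, n = 3 each), and its log2 fold change was 0.19 (SE 0.045, edgeR adjusted p = 0.00698), which did not pass with library size as the only scaling (edgeR adjusted p = 0.0913). Per length, the *Dysf* to *Myof* ratio was 1.61 to 1.86 in WT and 1.87 to 2.01 in KO, a difference of 0.15 on the log2 scale. It was likewise not planned, and no test is given.

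**Figure D2:**
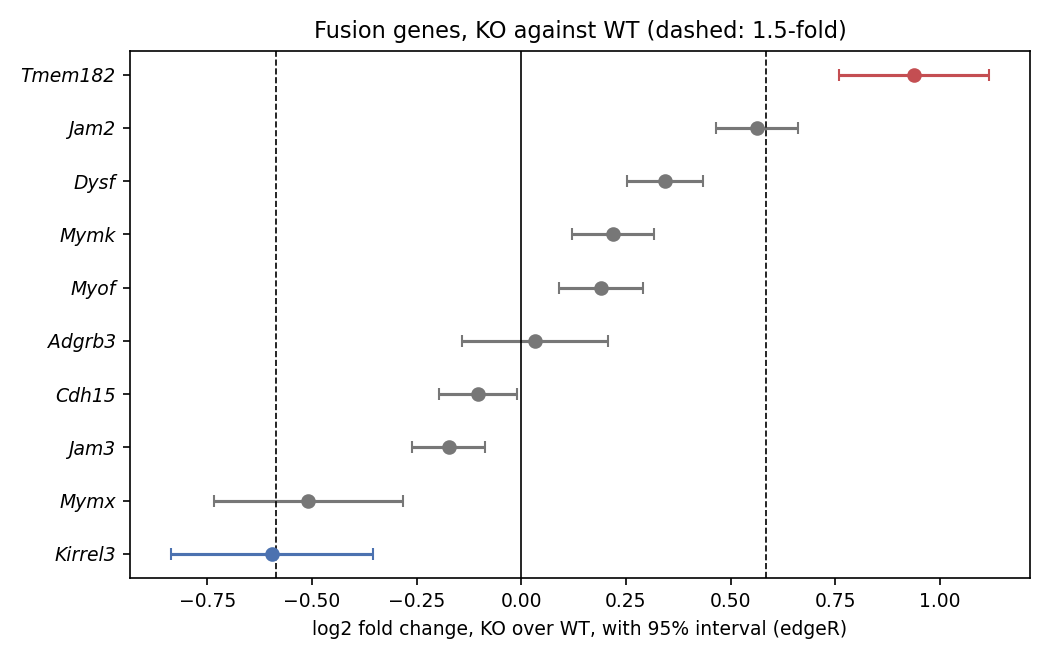
Log2 fold change of KO over WT with its 95% interval from edgeR for each of the 10 genes, in order of size, with dashed lines at 1.5-fold. *Tmem182* (0.94, red) lies past the line, *Kirrel3* (-0.60, blue) just past it on the lower side, and *Jam2* (0.56) and *Mymx* (-0.51) just inside the lines in grey.

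Levels per kilobase of exon set the members in order within a genotype. In WT, *Mymk* led with 52.6 CPM per kilobase, followed by *Tmem182* with 27.1, *Cdh15* with 21.6, *Jam3* with 16.0 and *Mymx* with 15.9. Then came *Dysf* with 8.41, *Jam2* with 7.88, *Myof* with 4.78, *Kirrel3* with 0.820 and *Adgrb3* with 0.164 CPM per kilobase. Of these neighbours, *Jam3* and *Mymx* overlapped in their WT samples, and the other neighbours did not.

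In KO, *Mymk* (61.2 CPM per kilobase) and *Tmem182* (51.8) stood nearer to each other, ahead of *Cdh15* (20.1) and *Jam3* (14.2). *Jam2* followed with 11.6, *Mymx* with 11.2 and *Dysf* with 10.7 CPM per kilobase, and *Mymx* overlapped with both of these neighbours. *Myof* (5.45), *Kirrel3* (0.542) and *Adgrb3* (0.167) kept their places at the low end. The per-length ratio of *Mymk* to *Tmem182* was 1.83 to 2.09 in WT and 1.12 to 1.28 in KO. This ratio was not among the planned results, and no test is given.

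Because fibre genes differed so much between the genotypes, each member was also set against muscle RNA within its own sample. This ratio needs no library scaling and is not touched by RNA of other tissues that lack the genes. Relative to the summed counts of the 12 fibre genes, all 10 members were lower in KO with no overlap between the genotypes, with differences between -1.72 (*Kirrel3*) and -0.19 (*Tmem182*) on the log2 scale and a median of -1.02. The fibre sum itself rose by 1.13 on the log2 CPM scale, so this ratio carries that rise. No member rose as much, the largest log2 fold change being 0.94 (*Tmem182*). The negative sign of all 10 ratios therefore followed from the fibre sum and is not a separate result about the members. *Tmem182* came nearest to keeping pace, with a log2 ratio of -8.53 ± 0.0546 in WT and -8.72 ± 0.00248 in KO (SD, n = 3 each). Without *Myh8*, the most counted fibre gene, its difference was -0.08. The exact two-sided permutation test gave p = 0.1 for each, the smallest that 3 against 3 samples allow.

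Relative to the summed counts of *Pax7*, *Myf5*, *Myod1* and *Myog*, grouped here as precursor genes, the members parted. *Myog*, which drives differentiation, was the most counted of the 4. In KO 8 members were higher, 7 of them with no overlap, and the 2 lower ones, *Mymx* (-0.31) and *Kirrel3* (-0.39), did not overlap either. *Tmem182* (1.14), *Jam2* (0.77), *Dysf* (0.55) and *Mymk* (0.42) had the largest differences in log2 ratio, followed by *Myof* (0.40), *Adgrb3* (0.24) and *Cdh15* (0.10). *Jam3* overlapped with a difference of 0.03 (exact permutation p = 0.3), and for the others the exact p was 0.1, the smallest possible. The precursor sum itself changed by -0.20 on the log2 CPM scale, so this ratio carries that shift. The share of all genes without overlap in either ratio was not counted, and in CPM alone it was 55.9%.

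**Figure D3:**
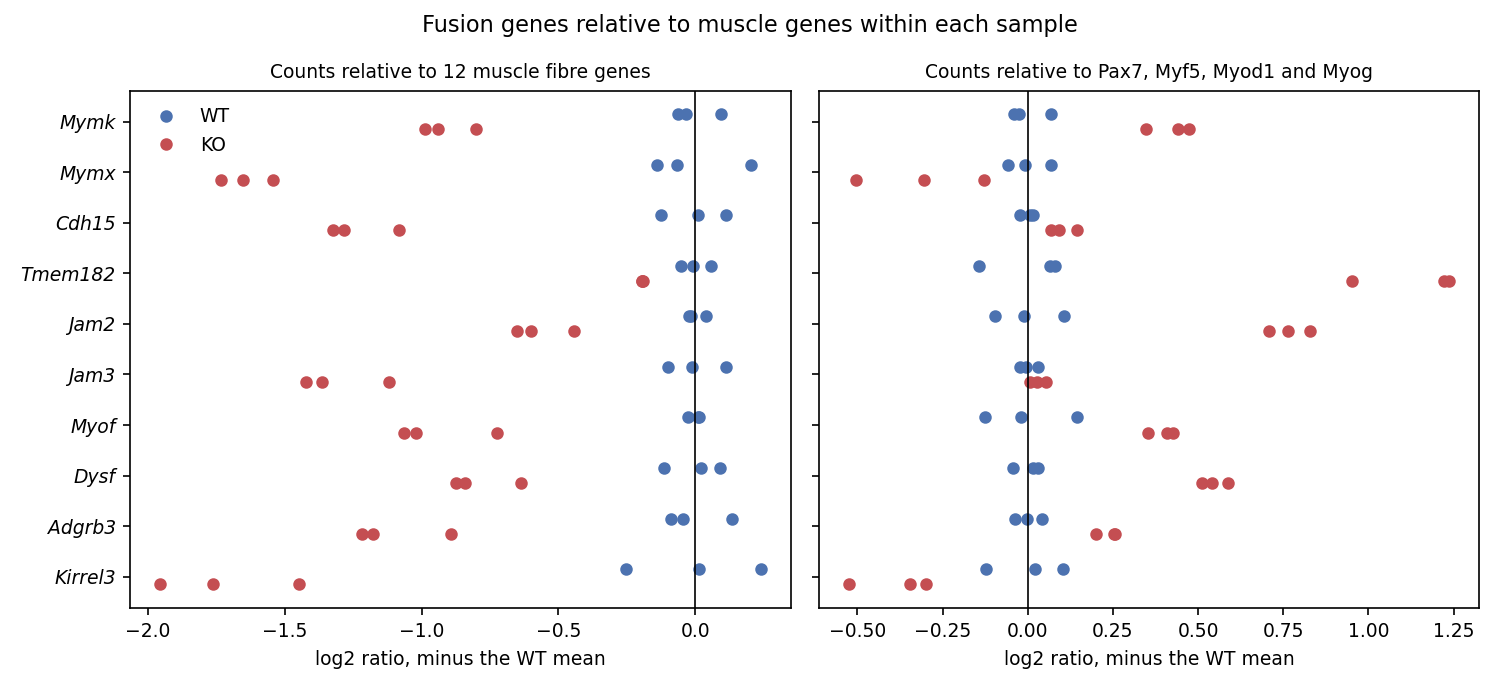
Log2 ratio of each gene's counts to the summed counts of 12 muscle fibre genes (left) and of *Pax7*, *Myf5*, *Myod1* and *Myog* (right) in the same sample, drawn relative to the WT mean, with WT samples in blue and KO samples in red. On the left all KO points lie below the WT points, with *Tmem182* nearest to them, and on the right *Tmem182* lies furthest above, while *Mymx* and *Kirrel3* lie below.

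The genes of the lists whose pattern over the 6 samples was most like each member were found by Pearson's r of log2 CPM among 156 list genes, as a description in which the difference between the genotypes enters every r. *Tmem182* was most like *Acta1*, *Neb* and *Myf6* (r = 0.997 each), and *Jam2* most like *Myh8*, *Neb* and *Pak1* (0.999 each). *Mymk* was most like *Cav3* (0.999) and *Mylpf* (0.983), and *Dysf* most like *Cd81* (0.992), *Ehd2* (0.988) and *Ttn* (0.986). Fibre genes thus stood among the nearest for each of these 4 members.

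*Cdh15* was most like *Pax7* (0.970), and *Myog* (0.884) was also among its nearest. *Jam3* was most like *Myog* (0.989), *Kirrel3* (0.977) and *Itga3* (0.966), and *Kirrel3* most like *Myog* (0.988), *Itga3* (0.984) and *Myod1* (0.982). *Mymx* was most like *Anxa2* (0.984), the red cell gene *Slc4a1* (0.954) and *Abi1* (0.951). *Myof* was most like the cartilage gene *Acan* (0.981), *Cdh19* (0.975) and *Anxa5* (0.966), and *Adgrb3* most like *Tgfb1* (0.901), *Col1a1* (0.850) and *Ptgfrn* (0.813). Genes of the precursor sum thus led for *Cdh15* (*Pax7*) and for *Jam3* and *Kirrel3* (*Myog*). Genes of other tissues stood among those nearest to *Mymx*, *Myof* and *Adgrb3*.

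Other genes of fusion were read from 7 lists that hold 83 genes in all, 82 of which were tested. Of these 5 were called higher and 4 lower, a share to be read against the 16.7% called of all genes tested. The adjusted p alone was passed by 29 higher and 19 lower genes, where 45.0% of all genes tested passed. The counts by adjusted p alone in each list below are to be read against that share. The median log2 fold change was 0.029.

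Of 17 recognition and adhesion genes, 2 were called, both lower, 7 higher and 3 lower genes passed the adjusted p alone, and the median was 0.08. *Itga3*, an integrin subunit that pairs with integrin beta 1, had 15.5, 19.5 and 16.8 CPM in WT and 10.7, 10.3 and 9.60 CPM in KO. Its KO samples all lay below WT, at a log2 fold change of -0.76 (edgeR adjusted p = 1.04e-04). *Nphs1*, which encodes nephrin, a partner of the Kirrel proteins, was counted only 17, 13 and 17 times in WT against 10, 7 and 6 times in KO, with a log2 fold change of -1.04 (edgeR adjusted p = 0.0243). Its call was lost with DESeq2 (adjusted p = 0.158) and, in edgeR, without WT replicate 1, WT replicate 3, KO replicate 2 or KO replicate 3.

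Of 11 genes of phosphatidylserine recognition and engulfment signalling, 1 was called higher and 1 lower, and 4 higher and 3 lower passed the adjusted p alone (median 0.07). *Cd36*, a scavenger receptor and fatty acid transporter, rose from 116 ± 7.05 to 210 ± 18.3 CPM (SD, n = 3 each), and its log2 fold change was 0.85 (edgeR adjusted p = 9.52e-06). Endothelial cells and macrophages express it as well as muscle. *Adgrb1*, the receptor BAI1 and a close relative of *Adgrb3*, was counted 142, 137 and 162 times in WT against 121, 78 and 67 times in KO. KO replicate 1 stood near the WT samples, and the log2 fold change of -0.75 (edgeR adjusted p = 0.0158) was no longer called without KO replicate 2 (-0.66) or KO replicate 3 (-0.56).

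Of 20 actin regulators, 1 was called, and 5 higher and 5 lower passed the adjusted p alone, with a median of -0.05. It was *Pak1*, a kinase acting downstream of Rac1 and Cdc42, which rose from 42.6 ± 1.72 to 79.0 ± 5.41 CPM (SD, n = 3 each), and its log2 fold change was 0.89 (edgeR adjusted p = 1.71e-06). Of 11 secreted signals and their receptors and mediators, 0 were called by edgeR, DESeq2 or limma-voom, although 5 higher and 1 lower passed the adjusted p alone and 7 had an unadjusted p under 0.05 (median 0.13). The most abundant were *Tgfbr2*, a receptor of the TGF-beta pathway that restrains fusion, with a log2 fold change of 0.21 (edgeR adjusted p = 0.00239), and its ligand *Tgfb3*, with 0.13 (edgeR adjusted p = 0.0121), which did not pass with library size as the only scaling (edgeR adjusted p = 0.264).

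Of 10 other ferlins and membrane repair partners, 9 were tested, 2 were called higher, and 4 higher and 2 lower passed the adjusted p alone (median 0.08). *Trim72*, which encodes the repair protein MG53 and was also picked by the study on these samples, rose from 94.8 ± 0.857 to 147 ± 10.003 CPM (SD, n = 3 each), and its log2 fold change was 0.63 (edgeR adjusted p = 8.89e-06). *Cav3*, the muscle caveolin, had 65.2, 64.1 and 64.2 CPM in WT and 85.6, 113.8 and 101.8 CPM in KO, and its log2 fold change was 0.64 (edgeR adjusted p = 2.57e-04). With library size as the only scaling both lay under the fold threshold (0.56 and 0.57), and *Cav3* also did without KO replicate 2 (0.54).

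Among 8 close relatives of the members, 1 was called, *Adgrb1*, and 1 higher and 4 lower passed the adjusted p alone, with a median of -0.19. Among 9 progenitor and myogenic transcription factors, 1 was called higher and 1 lower, and 3 in each direction passed the adjusted p alone (median -0.04). *Myf6*, the late myogenic factor MRF4, rose from 38.2 ± 1.003 to 67.5 ± 5.97 CPM (SD, n = 3 each), and its log2 fold change was 0.82 (edgeR adjusted p = 5.58e-06). *Pax3*, a factor of early limb progenitors, fell from 1.41 ± 0.317 to 0.854 ± 0.139 CPM (SD, n = 3 each), and its log2 fold change was -0.72 (edgeR adjusted p = 0.0120), a call that was lost without WT replicate 2 (-0.53) or KO replicate 3 (-0.63). *Myog*, the factor that drives differentiation, had a log2 fold change of -0.22 (edgeR adjusted p = 0.00212), and it was the most counted of the 4 precursor genes used as a denominator above.

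**Figure D4:**
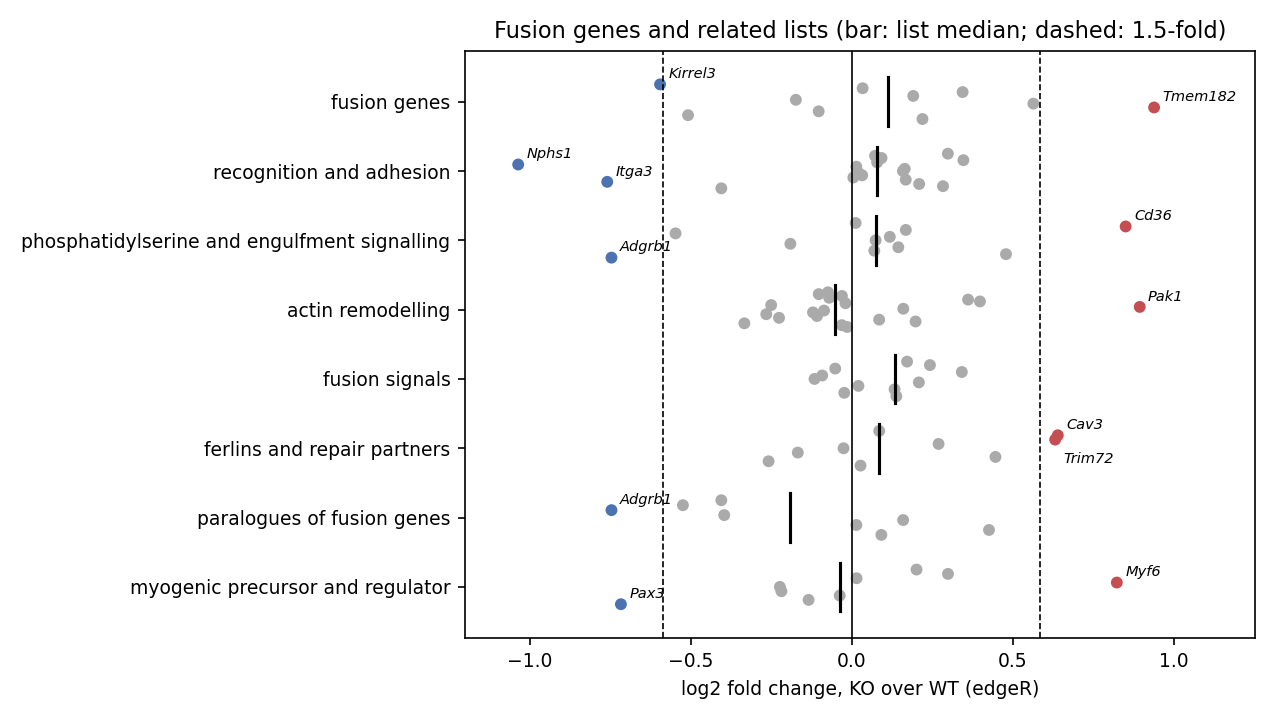
Log2 fold change of KO over WT (edgeR) for each tested gene of the fusion genes and the 7 related lists, with called genes in colour and by name, list medians as black bars and dashed lines at 1.5-fold. The medians lie between -0.19 (relatives of the fusion genes) and 0.13 (fusion signals), and every list holds values on both sides of 0.

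The marker lists of other cell types gave these levels in the same samples. Endothelial markers summed to 708 to 738 CPM in WT and 813 to 855 CPM in KO with 0 of 8 called, and fibroblast markers to 28445 to 31455 and 34593 to 35745 CPM with 0 of 6 called. Neither list had a gene called by edgeR, DESeq2 or limma-voom. By the adjusted edgeR p alone 6 endothelial and 4 fibroblast markers passed, all higher in KO, where 45.0% of all genes tested passed. An unadjusted edgeR p under 0.05 was found for 7 endothelial and 4 fibroblast markers. Macrophage markers summed to 191 to 204 CPM in WT and 308 to 334 CPM in KO, with 3 of 6 called higher. Schwann cell and nerve markers summed to 183 to 199 and 177 to 194 CPM, with 1 of 9 called higher and 3 lower, and cartilage and bone markers to 1190 to 1287 and 1079 to 1136 CPM, with 1 of 7 called higher and 3 lower. *Jam2*, *Jam3* and *Cd36* are also expressed by endothelial cells, and the part of those cells in their values was not tested.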

How the data were processed

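Leg muscle RNA of 3 WT and 3 KO fetal samples was sequenced in 150 bp pairs. The authors trimmed reads with Trim Galore 0.6.6, mapped them to mm10 with HISAT2 2.2.1 and counted them per gene with featureCounts 2.0.1. The values the authors deposited are whole-number counts per gene, not normalized. Annotation, strand setting and whether reads or pairs were counted are not given in the sources used here. IDs were matched without version to GENCODE M21 (55227 found, 1035 not), and all 10 members had the same ID version.

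The counts were tested in R 4.3.3 with edgeR 4.0.16 (filterByExpr, TMM, quasi-likelihood F-test on genotype, Benjamini-Hochberg over 22071 genes). The tests were checked on simulated data. With 3 samples a group and 82054811 to 102233181 counts a sample, the biological coefficient of variation was 7.68%. Replicates of a genotype differed by more than sampling noise (mean chi-square per gene 5.17 to 35.5). Same-numbered WT and KO samples correlated at -0.20, -0.13 and 0.05 in their deviations, so they were not paired. Within-sample ratios were tested with an exact permutation test.

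The genes named are all 10 members, of each related list the called genes (at most 4 in each direction, by adjusted p) or, where none was called, the 2 most abundant, and the 3 genes most like each member over log2 CPM with a prior count of 2. *Synpo2* and *Myog* were named beside the rule, and 2 of the genes most like a member are not reported here. Members and lists were chosen with earlier results of these data known. Alternatives were RLE, upper-quartile and library-size scaling, DESeq2 1.42.0, limma-voom (3.58.1), no filter or at least 10 counts, a replicate block, the share of Y-linked counts, other fold thresholds, other denominators and leaving out each sample. Promoters are from RefSeq, and primers from the study's supplement.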

Additional observations from a re-analysis of the deposited data

How the results depend on the processing

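The number of members called was 2 in the main analysis and with RLE factors, upper-quartile factors, library size, DESeq2, limma-voom, either other filter and the Y-linked share as a covariate, and it lay between 1 and 3 when each sample was left out. With each sample left out, the log2 fold change of *Mymx* lay between -0.62 and -0.41, that of *Jam2* between 0.54 and 0.60 and that of *Kirrel3* between -0.69 and -0.52, and the samples whose absence changed a call are named beside these genes above. With no fold threshold the number of members was 8, and with a fold over 2 it was 0. For the related lists, 9 genes were called in the main analysis, 48 with no fold threshold and 1 with a fold over 2. With upper-quartile factors *Jam2* was called (0.63) and *Kirrel3* was not (-0.53), and with library size alone *Adgrb3* turned to -0.035. With a replicate block 2 members and 9 list genes were called and 8 members passed the adjusted p alone, which changed no call of a member. The ratios to fibre genes stayed negative for all 10 members without *Myh8*, the most counted fibre gene, and *Tmem182* moved to -0.08. Without *Myog* in the precursor sum *Jam3* stood at -0.00084, and the cause was not tested. *Kirrel3*, *Adgrb3*, *Adgrb1*, *Pax3* and *Nphs1* had the fewest counts of the genes named, and counts limit their precision most.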
